A study of Homo sapiens with 6 samples.

Results

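The S100 proteins and the annexins are the families of calcium-binding proteins described here in the established bladder cancer line J82, with and without disruption of the forkhead transcription factor gene FOXC1. Members were the protein-coding genes whose symbol is S100 followed by a letter and optional digits, or ANXA followed by digits with an optional L form. The rule found 32 members, 19 S100 genes and 13 annexin genes, among the 57820 genes counted. RNA-seq had been carried out on polyadenylated transcripts of 6 libraries, 3 from a control genotype that per the study's methods carried a vector, and 3 from a genotype labelled FOXC1 KO, in which the gene had been targeted with the lentiCRISPRv2 system, a lentiviral vector that delivers Cas9 and a guide RNA. All cells had been grown in DMEM with serum, with no drug treatment given in the labels, and the methods describe selection with puromycin. The methods speak of knockout clones, but neither the number of clones behind the 3 libraries nor separate cultures are given, so p-values measure the spread between these libraries, which may be technical. KO below means the libraries labelled FOXC1 KO.

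S100 proteins are small cytoplasmic proteins with a pair of EF-hand motifs, the helix-loop-helix fold that binds calcium, and most work as dimers that attach to a target protein once calcium is bound. Annexins bind phospholipid membranes in the presence of calcium and take part in membrane repair, vesicle traffic and the link between membrane and actin. The families meet in stable complexes, above all that of S100A10 with ANXA2, which sits under the plasma membrane and at the cell surface assists the conversion of plasminogen to plasmin. Most S100 genes lie in a cluster on chromosome 1q21, whereas the annexin genes are scattered.

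Total counts ranged from 18408134 to 25350908 per library. Levels are given as CPM, read counts scaled to the depth of each library after adjustment with TMM (trimmed mean of M values), and as CPM per kb of transcript where genes are compared with each other. The labels state that loss of FOXC1 had been checked by western blot, a measurement of protein that is not analysed here. The transcript of the targeted gene gave no check of the labels. FOXC1 was measured at 18.4, 16.9 and 19.3 CPM in control and at 24.1, 22.2 and 21.1 CPM in KO libraries (replicates 1 to 3, log2 fold change 0.30, SE 0.0914, adjusted p 0.0127 in edgeR). Of 18 urothelial markers 9 could be tested, and the uroplakin genes UPK1A, UPK1B, UPK2 and UPK3A, which define the mature bladder lining, were at or under 0.197 CPM in every library, as were KRT5, KRT20 and CDH1. The summed level of the 18 markers was 3182 to 4005 CPM in control and 2506 to 2787 CPM in KO libraries. Of the 9 tested markers 6 were called lower (66.7%, against 8.39% of all genes tested), among them KRT8, KRT18, KRT19 and PPARG. KRT17 was called higher (11.1%, against 7.57% of all genes). KRT7 was expressed at 992 ± 103 CPM in control and 948 ± 68.3 in KO libraries (SD, n = 3) and was not called. Of 3 endothelial markers 2 were matched to the counts, VWF and CDH5. Their sum was 0.134 to 0.275 CPM in control and 0.991 to 1.304 CPM in KO libraries. CDH5 was called higher (0, 0 and 0.0393 CPM against 0.978, 0.714 and 1.10), while VWF was not tested and its groups overlapped. Summed neutrophil and monocyte markers were at 3.93 to 4.59 and 5.55 to 6.80 CPM, with CD14 called higher (3.52 ± 0.470 to 5.38 ± 0.391 CPM, SD, n = 3), while MPO and CSF3R had 0 counts. Summed fibroblast markers were at 70.5 to 71.6 and 63.7 to 82.3 CPM, with COL1A1 called higher (2.68 ± 0.844 to 12.2 ± 0.211 CPM) and DCN lower (18.5 ± 0.994 to 10.4 ± 1.63 CPM). The part of these marker differences in the results below was not tested.

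To see which members J82 cells express, levels per length were examined first. The S100 family was led by S100A6 (calcyclin), a partner of several annexins. It stood at 3007 CPM per kb in control and 2558 in KO libraries. S100A11 followed with 748 and 684 CPM per kb, and S100A10 with 724 and 479 CPM per kb. S100A13, a copper-binding member that assists the release of fibroblast growth factor 1, and S100A16 came next at 90.3 and 80.3 CPM per kb over all 6 libraries. S100A2, S100A3 and S100A4 lay between 12.02 and 27.1 CPM per kb, and S100P at 2.06. In CPM, without division by length, S100A10 exceeded S100A11 in every control library (527, 473 and 457 against 464, 408 and 391), so the order of this pair in control cells rests on the transcript length used.

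The annexins were led by ANXA2 at 1487 CPM per kb in control and 1215 in KO libraries, and ANXA2 alone took 0.231% to 0.233% of all counts in control and 0.184% to 0.192% in KO libraries. ANXA1, a phospholipase A2 inhibitor and ligand of formyl peptide receptors, followed with 530 and 462 CPM per kb. ANXA5, which binds phosphatidylserine, stood at 380 and 376 CPM per kb. These levels use the length of 1 canonical transcript per gene. With the length of all annotated exons in its place, a setting chosen after the data were seen, the same 3 annexins led but ANXA5 (212 CPM per kb) came before ANXA2 (181) and ANXA1 (156). ANXA6, ANXA3 and ANXA7 lay between 70.2 and 101 CPM per kb over all libraries, ANXA4 and ANXA11 near 30 (31.2 and 29.9), and the other annexins at or under 3.16.

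**Figure D1:**
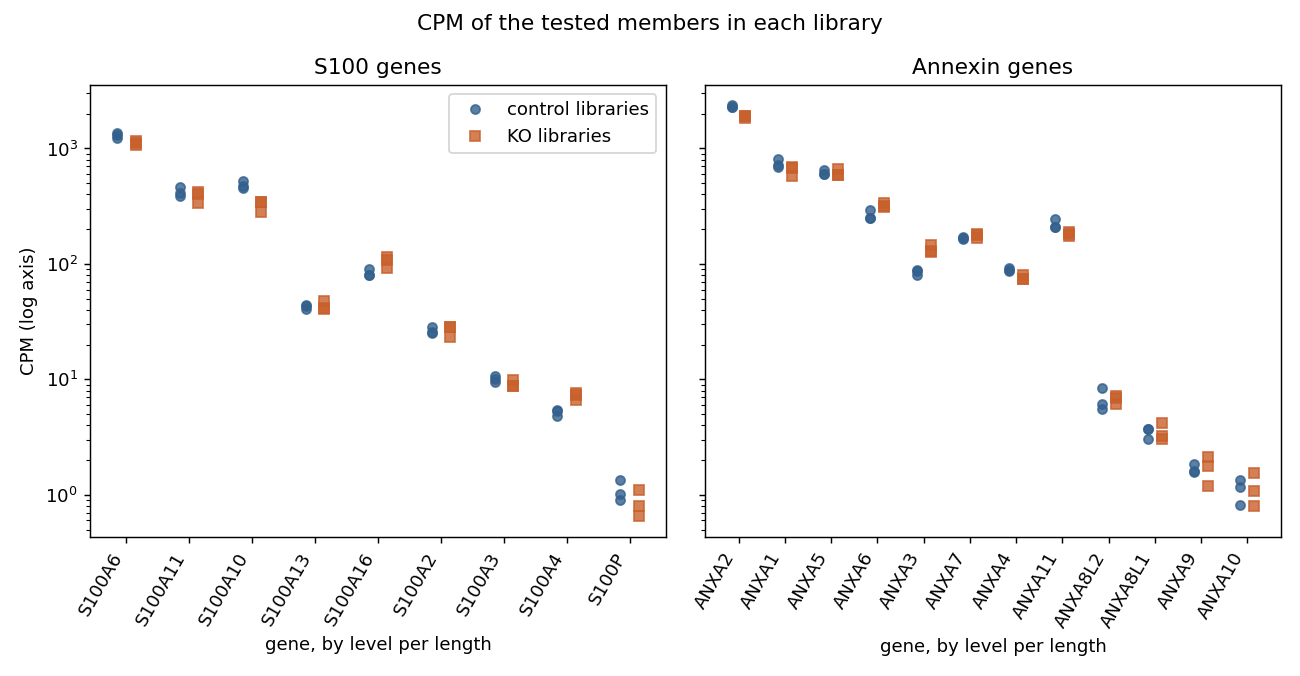
CPM of the 21 tested members on a log axis, with 1 point per library, circles for the 3 control and squares for the 3 KO libraries, a panel per family and genes ordered from left to right by mean level per length. S100A10, ANXA2, ANXA3 and S100A4 show groups that do not overlap, whereas S100A13, ANXA5 and ANXA7 show groups that lie on each other.

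A part of the family was silent or nearly so. S100A7, S100A8, S100A12, S100B and S100Z had 0 counts in all 6 libraries, which at 3 counts per library allows a level of up to 0.118 to 0.163 CPM, covering counting error only. S100A8 and S100A9 form calprotectin, the abundant calcium-binding protein of neutrophils and inflamed epithelium. S100A9 had 0 to 2 counts per library. S100A1, S100A5, S100A14, S100G and ANXA13 had at most 9 counts in any library. These 11 members were too low to be tested, and no difference was detectable at this depth.

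The comparison of KO with control cells asked which members differ when FOXC1 is disrupted. Of the 21 members with enough counts for the test, 1 was called lower and 2 were called higher, where a call needs an adjusted p under 0.05 in edgeR and a fold change over 1.3. In these bulk libraries, fewer cells with a transcript and less of it per cell cannot be told apart. Among all 15647 genes tested, 8.39% were called lower and 7.57% higher, so the shares of 4.76% and 9.52% in these families were near the background. Without the fold threshold 5 members were lower and 4 higher, against 14.3% and 15.2% of all genes. Control and KO values were fully separate in 10 of the 21 members (47.6%) against 41.3% of all genes. The median log2 fold change was -0.13 over 9 tested S100 members and 0.00 over 12 tested annexins, beside 0.00 over all tested genes. Over 12 alternative fits the S100 median was -0.19 to -0.05, each taken over the S100 members in that fit. DESeq2 and the fit without a low-count filter take in S100 members too low to be tested here. Differences in these families were small, and the largest fold in either direction was 1.58, for ANXA3.

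S100A10 (p11) was the only member called lower in this fit. S100A10 (ENSG00000197747.4, chromosome 1, 151955391 to 151966335, minus strand, GRCh37) was measured at 527, 473 and 457 CPM in control and at 281, 342 and 341 CPM in KO libraries (replicates 1 to 3). Every KO library lay below every control library, and KO replicate 1 was the lowest of all. The mean fell from 486 ± 36.7 to 321 ± 34.7 CPM (SD, n = 3). On the log2 scale the difference was -0.60 (SE 0.0782, edgeR adjusted p 7.44e-07). It kept its call in all 12 alternative fits, with values from -0.65 to -0.51, the latter without KO replicate 1.

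ANXA2, the partner of S100A10, was lower too, but by less than the fold threshold. ANXA2 (ENSG00000182718.12, chromosome 15, 60639333 to 60695082, minus strand, GRCh37) gave 2357, 2283 and 2292 CPM in control and 1916, 1853 and 1897 CPM in KO libraries. The groups were far apart relative to their spread (2311 ± 40.6 against 1889 ± 32.0 CPM, SD, n = 3). The log2 difference of -0.29 (SE 0.0703, edgeR adjusted p 0.00213) corresponds to 0.817 of the control level. ANXA2P2, a processed copy of ANXA2 whose reads may be shared with it, had 9.97 ± 0.853 and 7.67 ± 0.789 CPM (SD, n = 3), a small fraction of the ANXA2 level.

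Because the proteins form a complex, their transcripts were also set against each other within each library, a ratio that no scaling of libraries can change. The count ratio of S100A10 to ANXA2 was 0.224, 0.207 and 0.200 in control and 0.147, 0.184 and 0.180 in KO libraries. It did not overlap between the groups, and the KO mean was 0.810 of the control mean. In contrast, the ratios of S100A11 to ANXA1, S100A11 to ANXA2, S100A6 to ANXA11 and S100A6 to ANXA2, all known binding partners, overlapped between the groups, and the KO means lay above the control means in all 4 (0.594 and 0.571 for S100A11 to ANXA1, 0.204 and 0.182 for S100A11 to ANXA2). These ratios are given without a test.

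ANXA3 was called higher, with the largest difference of either family. ANXA3 (ENSG00000138772.8, chromosome 4, 79472901 to 79531605, plus strand, GRCh37), an annexin abundant in neutrophils and reported in several carcinomas, gave 80.5, 88.6 and 86.1 CPM in control and 128, 130 and 145 CPM in KO libraries. All KO values were above all control values. The mean rose from 85.1 ± 4.12 to 134 ± 9.10 CPM (SD, n = 3). The log2 difference of 0.66 (SE 0.0732, edgeR adjusted p 4.07e-08) ranged from 0.60 to 0.69 over 12 alternative fits.

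S100A4 was the other member called higher. S100A4 (ENSG00000196154.7, chromosome 1, 153516089 to 153522612, minus strand, GRCh37), known as metastasin for its ties to cell motility and non-muscle myosin, stood at a low level of 5.30, 4.79 and 5.42 CPM in control and 7.33, 7.57 and 6.58 CPM in KO libraries, from 117 to 191 counts each. The log2 difference was 0.47 (SE 0.123, edgeR adjusted p 0.00435). It passed in all 12 alternative fits at adjusted p from 0.00304 to 0.030, though not when edgeR tested directly against a change of 1.3-fold. S100A3 lies within the S100A4 gene on the same strand, and how the authors' counting treated reads in the 1930 shared bases is not stated. S100A3 itself had 10.1 ± 0.636 CPM in control and 9.08 ± 0.618 in KO libraries (SD, n = 3, log2 fold change -0.15, adjusted p 0.335 in edgeR).

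**Figure D2:**
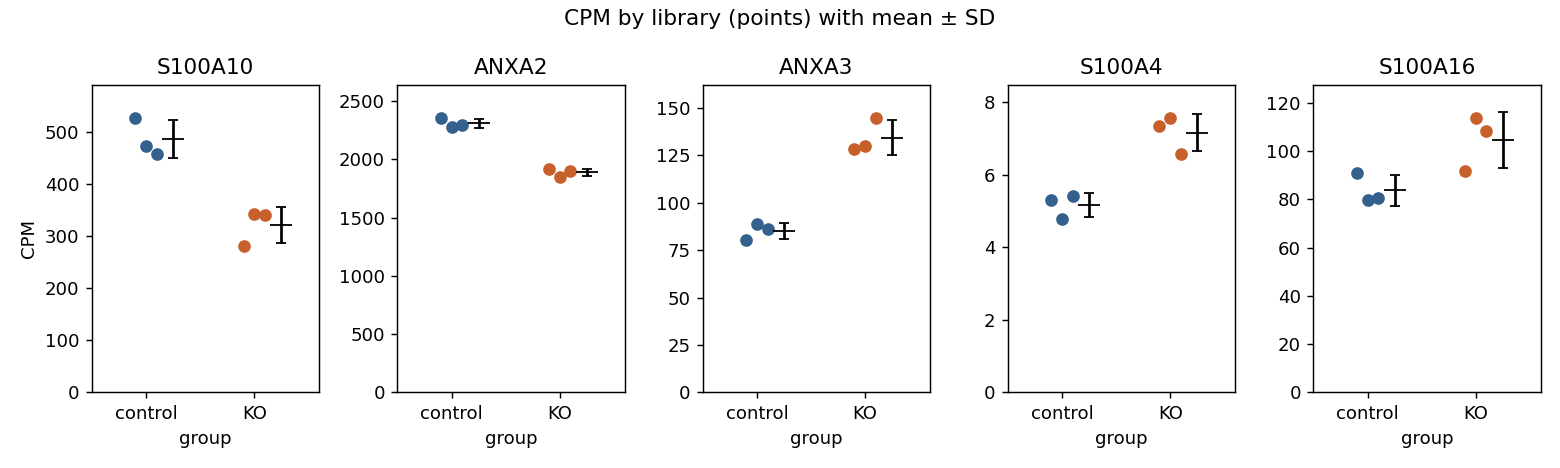
CPM of S100A10, ANXA2, ANXA3, S100A4 and S100A16 in the 3 control (blue) and 3 KO (orange) libraries (points, linear axis from 0), with the mean ± SD beside each group. S100A10 spans 457 to 527 CPM in control and 281 to 342 in KO libraries, and for S100A16 the lowest KO point (91.8) nearly meets the highest control point (91.1).

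To show what lies before the start of the genes that moved, the 250 bases upstream of the RefSeq transcription start are printed for the 3 called members and for ANXA2 (GRCh38.p14, a build other than that of the gene positions above). They are at chr1:151993860-151994109 for S100A10, chr15:60397987-60398236 for ANXA2 and chr1:153545807-153546056 for S100A4, all on the minus strand, and at chr4:78551520-78551769 on the plus strand for ANXA3. Capitals mark matches, on either strand, to the forkhead cores GTAAACA and ATAAACA, the AP-1 site TGAGTCA, the TATA box TATAAA and the GC box GGGCGG, and overlapping GC boxes run together.
S100A10: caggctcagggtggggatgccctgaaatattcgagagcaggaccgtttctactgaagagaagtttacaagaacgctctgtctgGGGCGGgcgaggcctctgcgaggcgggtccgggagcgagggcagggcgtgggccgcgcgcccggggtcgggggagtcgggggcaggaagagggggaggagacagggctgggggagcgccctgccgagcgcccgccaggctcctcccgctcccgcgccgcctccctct
ANXA2: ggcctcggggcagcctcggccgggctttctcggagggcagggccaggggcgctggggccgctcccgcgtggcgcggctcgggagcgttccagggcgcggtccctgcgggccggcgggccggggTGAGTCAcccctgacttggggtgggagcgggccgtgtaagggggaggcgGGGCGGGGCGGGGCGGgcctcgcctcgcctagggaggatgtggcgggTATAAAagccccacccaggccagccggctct
ANXA3: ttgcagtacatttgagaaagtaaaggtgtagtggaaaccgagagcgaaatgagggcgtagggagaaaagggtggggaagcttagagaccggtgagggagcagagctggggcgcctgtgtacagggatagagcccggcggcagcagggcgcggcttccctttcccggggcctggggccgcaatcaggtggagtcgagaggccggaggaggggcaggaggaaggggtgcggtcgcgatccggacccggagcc
S100A4: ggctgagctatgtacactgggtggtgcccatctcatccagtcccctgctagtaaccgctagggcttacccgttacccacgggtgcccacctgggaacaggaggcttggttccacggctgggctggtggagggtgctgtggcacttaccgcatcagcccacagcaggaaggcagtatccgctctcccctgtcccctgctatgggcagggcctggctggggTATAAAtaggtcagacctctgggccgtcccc

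S100A10 and ANXA2, which were both lower, share the GC box among these motifs, and ANXA2 also holds a TATA box at -31 and an AP-1 site at -127 from the start. The GC box is not particular to this pair. It was found for 14 member genes, among them ANXA6 and S100A16, which were higher in KO libraries under the fold threshold. S100A4 holds a TATA box at -31 and ANXA3 none of the motifs. Of the 32 members 29 had an entry among the RefSeq promoters, with 40 promoters in all. Neither forkhead core was found in any of the 40. GTAAACA is in 2.98% and ATAAACA in 3.77% of all 35116 promoters of this length. At shares this low, finding none among 40 promoters does not set these genes apart. Only exact matches in these upstream bases were sought. The paper also reports FOXC1 binding at enhancers, and forkhead sites there or with other letters were not tested. The TATA box was in 14 of the 40 (35.0%) against 10.7% of all promoters, the AP-1 site in 4 (10.0%) against 4.20%, and the GC box in 15 (37.5%) against 42.6%. Promoters of 1 gene can overlap, and these shares describe letters only.

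The remaining S100 members of the chromosome 1 cluster did not move together. S100A6 (ENSG00000197956.5) gave 1371, 1313 and 1231 CPM in control and 1067, 1153 and 1110.5 CPM in KO libraries, all lower. Its log2 difference of -0.23 (SE 0.0715, edgeR adjusted p 0.0137) was under the fold threshold, and without KO replicate 1 the adjusted p was 0.0577. S100A11 (ENSG00000163191.5), which binds ANXA1, had 464, 408 and 391 CPM in control and 337, 417 and 400 CPM in KO libraries, with overlapping groups and a log2 difference of -0.13 (SE 0.0796, edgeR adjusted p 0.239). Its lowest value was that of KO replicate 1.

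S100A16, a broadly expressed member, went the other way, at 91.1, 79.5 and 80.4 CPM in control and 91.8, 114 and 108 CPM in KO libraries. The log2 difference of 0.32 (SE 0.0808, edgeR adjusted p 0.00279) missed the fold threshold and passed it without KO replicate 1 (0.41) or without control replicate 1 (0.38). For S100A13 (0.02, SE 0.0819) and S100A2 (0.02, SE 0.0903) the groups overlapped, and the sign changed with single libraries left out. S100P, which lies on chromosome 4, had 12 to 34 counts per library and a log2 fold change of -0.32 with a wide SE of 0.271 (adjusted p 0.411 in edgeR). Along the cluster, S100A10 (-0.60) lies next to S100A11 (-0.13), and S100A4 (0.47) lies between S100A6 (-0.23) and S100A2 (0.02) with S100A3 (-0.15) inside it, so that neighbours differed in size and in direction.

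**Figure D3:**
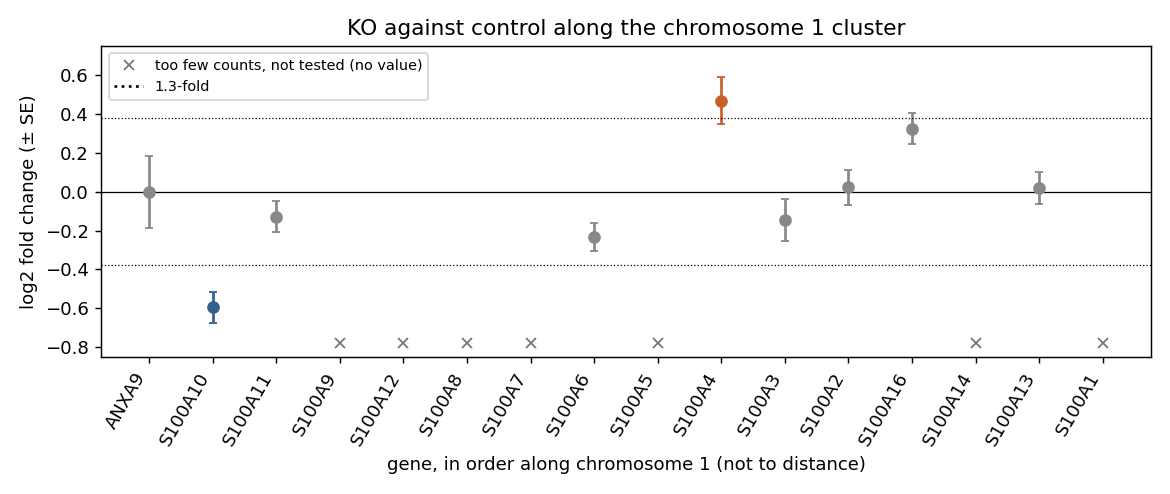
Log2 fold changes (KO against control, points ± SE) of the 16 members on chromosome 1 in their order along the chromosome, with dotted lines at 1.3-fold and crosses for the 7 members with too few counts. S100A10 is at -0.60, S100A4 at 0.47 and S100A16 at 0.32, with S100A6 at -0.23. Blue and orange mark the genes called lower and higher.

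Among the other annexins, ANXA6 and ANXA11 differed in opposite directions. ANXA6 (ENSG00000197043.9), an annexin with a doubled core that binds membranes and cholesterol-rich domains, was measured at 293, 248 and 252 CPM in control and 317, 336 and 309 CPM in KO libraries (log2 fold change 0.28, SE 0.0729, adjusted p 0.00419 in edgeR). ANXA11 (ENSG00000122359.13), a partner of S100A6 that tethers RNA granules to lysosomes, was measured at 247, 208 and 210 CPM in control and 173, 191 and 182 CPM in KO libraries (log2 fold change -0.28, SE 0.0743, adjusted p 0.00432). In both genes control replicate 1 was the highest control value, and the groups did not overlap. Both kept an adjusted p under 0.05 in all 12 alternative fits, under the fold threshold.

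ANXA4, which is known from secretory epithelia, had 86.9, 88.6 and 92.5 CPM in control and 73.8, 74.3 and 80.6 CPM in KO libraries. Its log2 difference of -0.23 (SE 0.0722, edgeR adjusted p 0.0168) was not under an adjusted p of 0.05 without control replicate 3 (0.112), KO replicate 1 (0.069) or KO replicate 2 (0.0596). ANXA1 (ENSG00000135046.9) had 696, 817 and 715 CPM in control and 573, 681 and 690 CPM in KO libraries. Every KO value of ANXA1 was below the control values, but the log2 fold change of -0.20 (SE 0.0789) had an adjusted p of 0.0595 in edgeR, and the adjusted p ranged from 0.0113 to 0.317 over the alternatives. ANXA5 (654, 607 and 607 CPM in control, 659, 592 and 594 in KO libraries) had a log2 fold change of -0.02 (SE 0.0707). ANXA7, a calcium-dependent fusogen also called synexin, had 0.06 (SE 0.0675), and ANXA9 and ANXA10, with 19 to 45 counts per library, had 0.00 (SE 0.185) and 0.07 (SE 0.267). The near-identical ANXA8L1 and ANXA8L2, whose reads cannot be told apart with certainty, both had 0.01. ANXA8 itself is not among the members that the rule found, and its counts were not examined.

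**Figure D4:**
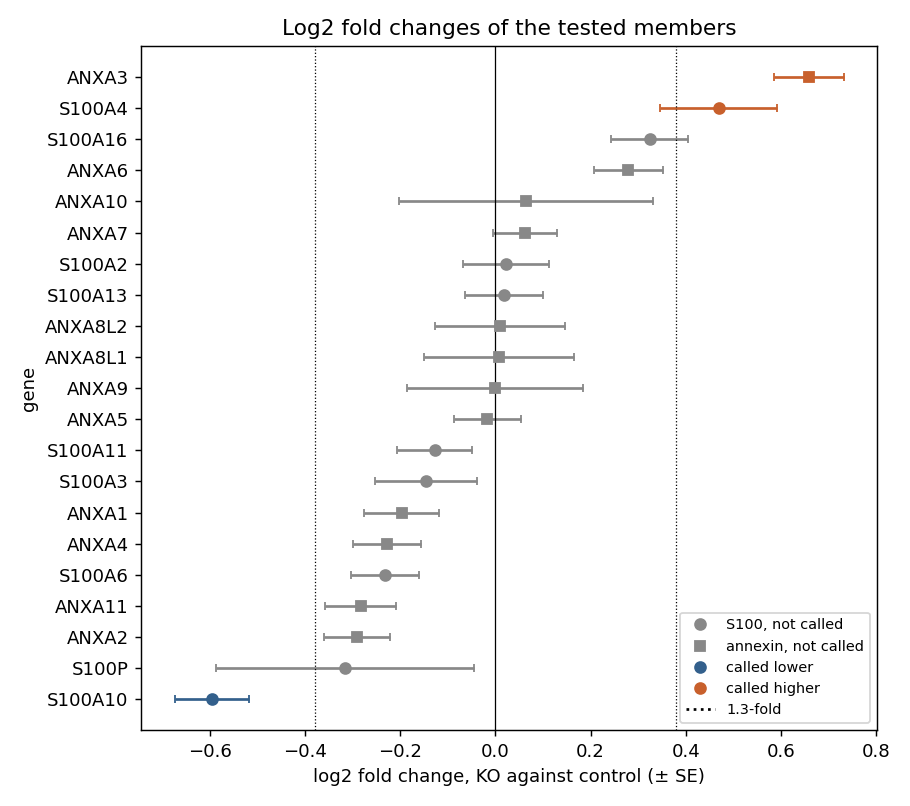
Log2 fold changes (KO against control) of the 21 tested members with their SE, sorted by value, circles for S100 genes and squares for annexins, with dotted lines at a fold change of 1.3. S100A10 at -0.60 lies beyond the lower line, ANXA3 at 0.66 and S100A4 at 0.47 beyond the upper line, and the other 18 members lie between the lines.

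The receptors and binding partners of these proteins were then examined as a list of 21 genes, of which 19 were tested. The list was chosen with earlier results of these data known, so its shares are a description and not a test. In this list 6 were called higher (31.6%, against 7.57% of all genes) and 2 lower (10.5%, against 8.39%). Of these, PLAT, MYH9 and ANXA2R, and all genes of the list that did not pass, lie outside the fixed rule for naming genes and were chosen after their values were seen, as was SYT11 further on. FPR1, a formyl peptide receptor that binds ANXA1, was measured at 0.981, 1.11 and 0.511 CPM in control and 6.09, 6.42 and 5.65 CPM in KO libraries. FPR1 rose by a log2 difference of 2.81 (SE 0.195, edgeR adjusted p 2.7e-12). FPR2, the receptor best known for ANXA1, had at most 0.0793 CPM in any library and was not tested, and FPR3 did not pass (-0.25, adjusted p 0.556).

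PLAUR, PLAU and PLAT were called higher, and their products belong to the plasminogen system on which the complex of S100A10 and ANXA2 acts. These genes were grouped after their values were seen. PLAUR, the urokinase receptor, gave 39.1, 36.2 and 37.3 CPM in control and 64.4, 70.3 and 64.1 CPM in KO libraries (log2 fold change 0.82, SE 0.0771, adjusted p 1.62e-09 in edgeR). PLAU, urokinase itself, gave 165, 154 and 159 CPM in control and 253, 263 and 243 CPM in KO libraries (0.67, SE 0.0684, adjusted p 8.52e-09). PLAT, the tissue plasminogen activator, rose from 35.4 ± 3.12 to 46.9 ± 1.85 CPM (SD, n = 3, 0.41 on the log2 scale). PLG, the plasminogen gene, had 0 counts in all libraries, and PLGRKT, a plasminogen receptor, did not pass (0.21, adjusted p 0.119).

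Among targets inside the cell, MYH9, the non-muscle myosin heavy chain that S100A4 binds, rose from 1282 ± 148 to 1931 ± 153 CPM (SD, n = 3, 0.59 on the log2 scale). TLR4, a receptor for calprotectin, fell from 102.5 ± 5.14 to 60.5 ± 4.56 CPM (SD, n = 3, -0.76 on the log2 scale). ANXA2R, a putative ANXA2 receptor, was called lower at a low level (1.70 ± 0.471 and 0.976 ± 0.214 CPM, SD, n = 3, log2 fold change -0.78, SE 0.248), with overlapping groups. ANXA2R was not called with DESeq2, at a mean of at least 50 counts, or without control replicate 2, control replicate 3 or KO replicate 1, whereas TLR4 was called in all 12 alternative fits. AGER, the receptor for advanced glycation end products that binds many S100 proteins, was at or under 1.34 CPM in all libraries and did not pass (-0.52, adjusted p 0.198). AHNAK, the large scaffold bound by S100A10 and ANXA2, did not pass either (-0.14, adjusted p 0.195).

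**Figure D5:**
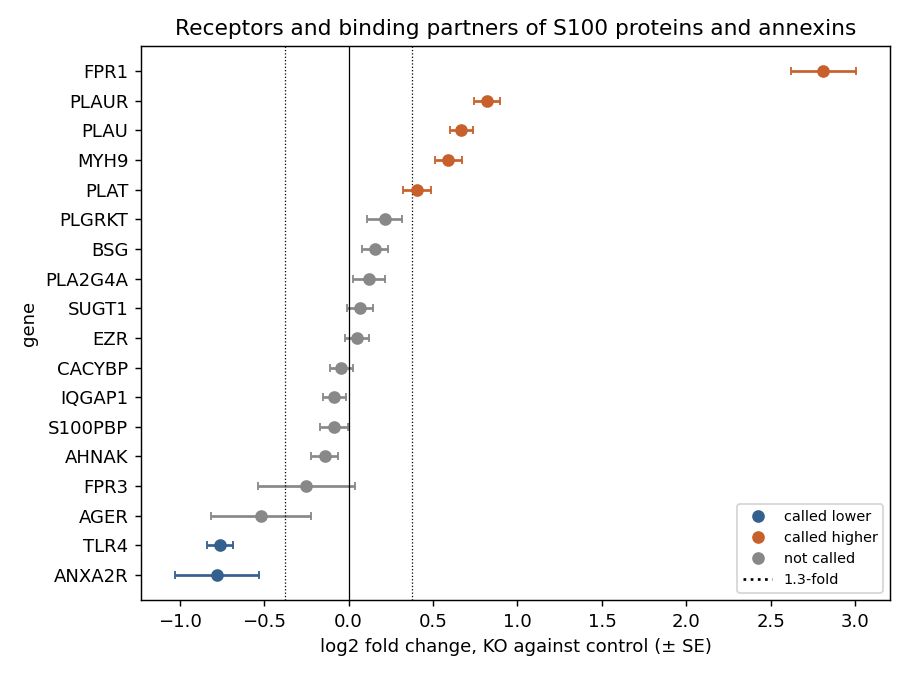
Log2 fold changes (KO against control, points ± SE) of the tested receptors and binding partners reported here, sorted by value, with dotted lines at 1.3-fold. FPR1 lies at 2.81, PLAUR follows at 0.82, and TLR4 (-0.76) and ANXA2R (-0.78) lie at the lower end.

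Other calcium-binding groups were described in the same way. Of 38 other EF-hand genes 26 were tested, with 2 called higher and 3 lower (7.69% and 11.5%, beside 7.57% and 8.39% of all genes). CALB2 (calretinin) rose from 1.06 ± 0.127 to 4.36 ± 0.803 CPM (SD, n = 3, 2.04 on the log2 scale), and NUCB2, a Golgi and secreted calcium-binding protein, rose by 0.50 on the log2 scale. NCALD (neurocalcin delta) fell from 1.20 ± 0.243 to 0.149 ± 0.058 CPM (SD, n = 3, -2.96 on the log2 scale), and CALML4 (-0.40) and CIB2 (-0.58) were the others called lower. CIB2 was not called in 4 alternatives and CALML4 in 2. Without KO replicate 1 the count of lower genes in this list was 1.

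Among 21 tested proteins that bind membranes through C2 domains, 4 were called lower and 2 higher (19% and 9.52%, beside 8.39% and 7.57% of all genes). CPNE7, a copine, fell from 32.8 ± 1.11 to 22.8 ± 1.07 CPM (SD, n = 3), and SYT12 (-0.90), SYTL2 (-0.42) and SYT11 (-0.47) were lower. SYTL2 lost its call without control replicate 2 (adjusted p 0.0759 in edgeR) or KO replicate 2 (0.0519). SYT11 was not called with DESeq2, without a low-count filter, or without control replicate 3, KO replicate 1 or KO replicate 3. In each of these fits the list had 3 genes lower. SYTL5 (0.79) and DYSF, the membrane repair protein dysferlin (0.53), were higher. Among 18 tested calcium channels, pumps and sensors, STIM2, a sensor of calcium in the endoplasmic reticulum, was called higher (23.9 ± 0.294 to 32.3 ± 1.63 CPM, SD, n = 3, log2 fold change 0.43). This 1 call is 5.56% of the list, and 0 were called lower. None of the 7 fused-type S100 genes, which include FLG (filaggrin) and lie in the same chromosome region, had enough counts to be tested, and their summed level stayed at or under 0.637 CPM.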

How the data were processed

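The 6 libraries had been prepared with an mRNA kit from J82 cells and sequenced as paired reads of 75 bases. The authors aligned reads with STAR to hg19 and deposited raw counts per gene from featureCounts of the Subread package on gene models of GENCODE version 19. Versions of STAR and Subread, the strand setting and treatment of shared reads are not given in the sources used here. The deposited count table holds gene IDs only, and symbols came from a later GENCODE release lifted to GRCh37 (55538 of 57820 IDs, 96.05%, matched). No column of another sample was used. PCR duplicates were not marked by molecular identifiers, so limits cover counting error only.

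Counts were tested with edgeR 4.0.16 in R 4.3.3 (filterByExpr, TMM scaling, robust quasi-likelihood F test, KO against control, n = 3 each), with Benjamini-Hochberg adjustment over all 15647 genes tested. Genes were called where the adjusted p was below 0.05 and the fold exceeded 1.3. The SE is the log2 fold change divided by the square root of F. CPM use TMM-scaled library sizes, and CPM per kb the Ensembl canonical transcript, or all exons for ANXA8L1 and ANXA8L2, which have none. The authors used DESeq2, which was run here (version 1.42.0) as an alternative, beside other scalings and filters, other fold thresholds, a replicate block and each library left out. The steps were tested on simulated counts.

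Members and lists were chosen with earlier results of these data known. Any member could be named, with values in every library for called members, the 3 members of each family with the highest level per length and the fixed partner pairs. The values in every library of S100A16, ANXA6 and ANXA4 lie outside this rule and were added after they were seen. From each other list up to 5 called genes with the smallest p were named, and FOXC1. Markers of cell types were named outside this rule. Replicate libraries had Pearson correlations of log CPM of 0.994 to 0.996 within groups, against at most 0.985 between them. Results for some genes of the lists are not reported here, although the list counts include them.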

Additional observations from a re-analysis of the deposited data

How the results depend on the processing

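S100A10, ANXA3 and S100A4 kept their direction and call in all 12 alternative fits. Without a fold threshold the counts were 2 S100 members lower and 2 higher, 3 annexins lower and 2 higher, and 2233 lower and 2372 higher of all genes. Over 2-fold, 0 members of either family were lower or higher, and 321 and 316 of all genes. With edgeR testing against 1.3-fold, 0 S100 members were higher, and 494 genes were lower and 516 higher. Leaving out 1 library gave 1 to 2 S100 members higher (2 without control replicate 1 or KO replicate 1, which adds S100A16), 1 to 2 receptors and partners lower, 1 to 4 other EF-hand genes lower, 1 to 2 calcium channels, pumps and sensors higher, an S100 median of -0.189 to -0.061 and an annexin median of -0.105 to 0.028 on the log2 scale. For the S100 median, taken over the members in each fit, DESeq2 gave -0.052, keeping low genes -0.053 and a mean of at least 50 counts -0.069. DESeq2 gave 1 receptor or partner lower and 2 calcium channels, pumps and sensors higher, and a mean of at least 50 counts gave 1 receptor or partner lower. Signs of small differences changed: ANXA9 with DESeq2 (0.013) and from -0.17 to 0.20 with 1 library left out, as did S100A2 (-0.029 to 0.099), S100A13 (-0.063 to 0.056), ANXA5 (-0.074 to 0.011), ANXA10 (-0.25 to 0.27), ANXA8L1 (-0.16 to 0.10, -0.002 with library size alone, -0.006 at a mean of 50 counts) and ANXA8L2 (-0.11 to 0.19, -0.003 at a mean of 50 counts). With replicate number as a block, 1351 genes were called lower and 1200 higher and no member's call changed, while same-numbered libraries did not deviate together (r = -0.027, -0.072 and 0.050), so the numbers do not pair them. Low counts limit S100P, ANXA9 and ANXA10, whose SE reach 0.271.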
